A study of Mus musculus with 6 samples.

Results

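Among 60649 human genes counted in 6 prostate tumors, 55 were well read in the tumors of mice fed a high glycemic index (HiGI) diet and nearly absent in those of mice fed a low glycemic index (LoGI) diet. A gene was taken when it had a mean of at least 100 reads over the HiGI tumors and when its mean CPM (its reads divided by the library total and multiplied by 1000000) in LoGI tumors was at most 2% of that in HiGI tumors. Of the 11630 genes with a mean of at least 100 reads in HiGI tumors, these 55 met the second condition. The mirrored rule, applied to the 11281 genes with a mean of at least 100 reads in LoGI tumors, found 0 genes. Since the diets' means chose the 55 members, the difference between diets is given below as a description. The rule did not use how the members varied from tumor to tumor. It used the mean of the same HiGI tumors, however, so that variation is also given as a description.

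Each tumor grew from cells of LAPC-4, an androgen-responsive human prostate cancer line, placed in the flank of male SCID mice. These mice lack B and T cells, so a tumor there grows without adaptive immunity, while vessels, stroma and other immune cells come from the host. All mice ate the HiGI diet until tumors averaged 200 mm3, were then housed singly and stayed on it or changed to the LoGI diet, and their tumors were taken at a fixed volume. Both Western diets held the same share of carbohydrate energy, mainly as sucrose in the HiGI diet and as a starch rich in amylose in the LoGI diet. RNA came from 3 HiGI tumors (numbered 16, 20 and 26) and 3 LoGI tumors (numbered 19, 27 and 28), 1 tumor per library.

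Glycemic index ranks carbohydrates by how fast they raise blood glucose. Sucrose is digested quickly, whereas starch rich in amylose resists digestion, gives a slower rise of glucose and calls for less insulin. Insulin and the related growth factor IGF-1 drive growth and survival signals in many epithelial cancers, which is the question behind the comparison of these diets. In whole-tumor RNA, fewer cells of a kind and less RNA per cell cannot be told apart.

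Library totals lay between 18749813 and 21550812 reads on genes, and the scaling factors by the trimmed mean of M-values (TMM) between 0.964 and 1.03. The sample records name the organism as mouse, whereas all counted genes carry human Ensembl identifiers, and the counts were read as human. The table of gene names used here lists mouse genes, so it has no entry for these human identifiers (0 of 60649 matched). The roles of the members, their positions, promoters and proteins, and the markers of prostate epithelium and of other cell types, were therefore not analysed here, and the members are described by their values, with 2 given by identifier. CPM takes no account of transcript length, so the order of members below is an order of reads and not of molecules.

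The 55 members spanned a wide range of read levels. Their mean HiGI level ran from 4.97 to 225 CPM with a median of 11.8 CPM, and their mean HiGI count from 101 to 4503 reads. In 5 members it was at least 100 CPM, and in 9 at least 50 CPM. Another 23 members lay between 10 and 50 CPM, and 23 lay under 10 CPM. Most members were thus read less than the other genes that passed the same count minimum, whose median was 36.4 CPM, a level exceeded by 12 members. The median member stood at the 17.9th percentile of the 11630 genes by HiGI CPM, and the top member at the 93.9th. In 42 of the 55, no HiGI tumor was under 100 reads.

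**Figure D1:**
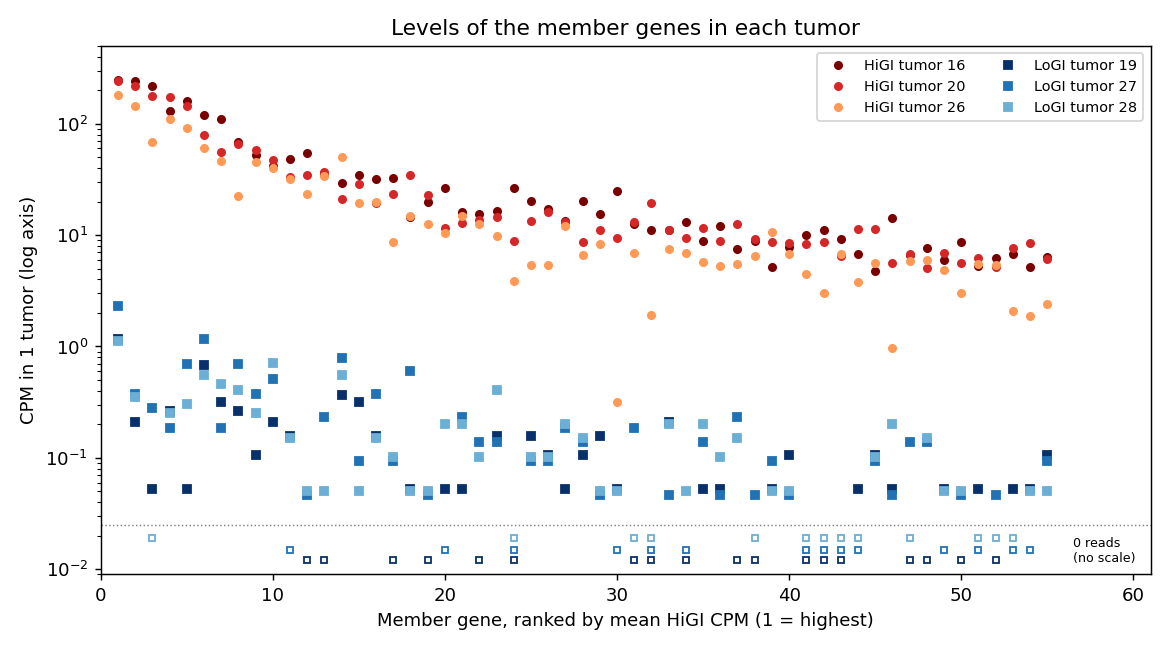
CPM in each tumor (log axis) for the 55 member genes, ranked by mean HiGI CPM; circles are HiGI and squares LoGI tumors, and open squares under the dotted line mark libraries with 0 reads. The lowest HiGI tumor stays above the highest LoGI tumor for every member, and the circles of tumor 26 lie lowest for 45 of the 55.

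The most-read member was ENSG00000134871.19. Its HiGI tumors 16, 20 and 26 gave 5231, 4865 and 3414 reads, or 248, 243 and 182 CPM, against 22, 50 and 22 reads in LoGI tumors 19, 27 and 28, or 1.16, 2.32 and 1.11 CPM. All HiGI tumors were high, with tumor 26 the lowest of them, and LoGI tumor 27 held most of the few LoGI reads. The means were 225 ± 36.9 CPM (SD, n = 3) in HiGI tumors and 1.53 ± 0.684 CPM (SD, n = 3) in LoGI tumors, a ratio of 147. Of all members it had the highest LoGI level, yet that level was 0.681% of its HiGI level.

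The next 4 members by reads were also above 100 CPM in HiGI tumors. The second had 244, 219 and 143 CPM in HiGI tumors 16, 20 and 26 and at most 8 reads in a LoGI tumor. The third had 220, 178 and 68.9 CPM in the HiGI tumors. Its LoGI tumors 19, 27 and 28 had 1, 6 and 0 reads, which gave the highest ratio of HiGI to LoGI among members with any LoGI read, 1411. The fourth had 131, 174 and 111 CPM in the HiGI tumors and 5, 4 and 5 reads in the LoGI tumors. It was the one gene of the 5 that was highest in tumor 20 and not in tumor 16. The fifth had 162, 146 and 91.9 CPM in the HiGI tumors and 1, 15 and 6 reads in the LoGI tumors. In LoGI tumors these 5 members kept between 0.0709% and 0.681% of their HiGI level. They held 47.4%, 51.2% and 48.1% of all member reads in HiGI tumors 16, 20 and 26, and 27.7%, 33.3% and 23.4% in LoGI tumors 19, 27 and 28.

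What remained in LoGI tumors was close to the limit of the depth for most members. Of the 55, 5 had 0 reads in every LoGI tumor, 26 had some reads but at most 3 in each, and 24 had over 3 in at least one. Only 7 had over 10 reads in any LoGI tumor. With 3 reads per library taken as the smallest level that can be shown, the 5 members at 0 were between at least 50.3-fold and at least 87.1-fold higher in HiGI tumors, on mean HiGI counts of 151 to 268 reads. The limit of 87.1-fold fell to 42.3-fold without HiGI tumor 16, and that of the next member, 72.7-fold, to 43.6-fold without HiGI tumor 20. For the 50 members with any LoGI read the ratio of mean HiGI to mean LoGI CPM ran from 58.1 to 1411 with a median of 148. The residue was at most 0.5% of the HiGI level for 18 of these 50, between 0.5% and 1% for 18, between 1% and 1.5% for 9 and above that for 5. These low counts carry wide counting errors, and the order by residue is not resolved at this depth for many members. The ratio of summed reads, scaled for library totals, had a 95% counting interval of 118 to 180 for the most-read member and 663 to 3401 for the third. These intervals did not overlap, but the third was the member with the highest ratio of the 50. They pool the tumors of a diet and leave out the spread between them. The rule used the contrast of the same diets, so nothing about the members is read from this.

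No LoGI tumor carried the residue alone. Members made up 119, 249 and 171 reads in LoGI tumors 19, 27 and 28, which is 0.000626%, 0.00116% and 0.000866% of the libraries. The 95% Clopper-Pearson intervals were 0.000518% to 0.000749% for tumor 19, 0.00102% to 0.00131% for tumor 27 and 0.000741% to 0.00101% for tumor 28. Tumor 27 lay above tumor 19 beyond counting error, and its interval was also above that of tumor 28, which overlapped with the interval of tumor 19. Part of this rested on the most-read member, which gave 50 of the reads in tumor 27. Without it the intervals were 0.000414% to 0.000622% for tumor 19, 0.000800% to 0.00106% for tumor 27 and 0.000638% to 0.000886% for tumor 28. In this check, chosen after seeing the data, tumor 27 still lay above tumor 19 but overlapped with tumor 28, which lay above tumor 19. Of the 50 members with a LoGI read, 16 were highest by CPM in tumor 19, 19 in tumor 27 and 15 in tumor 28. Many of these rest on a few reads, and equal reads count for the tumor with the smaller library, so this split says little. The number of members at 0 reads was 18, 14 and 13 in tumors 19, 27 and 28.

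In HiGI tumors the members took a larger share of the reads, which again differed between tumors. It was 0.212% in tumor 16 (interval 0.210% to 0.214%), 0.188% in tumor 20 (0.186% to 0.190%) and 0.124% in tumor 26 (0.123% to 0.126%). Tumor 16 thus had 1.71 times the share of tumor 26. The factor was 1.77 without the most-read member and 1.73 without the 5 most-read (both chosen after seeing the data). These intervals and limits were computed from read counts alone, so they take in counting error and nothing else. The reads carried no molecular tags, so repeated reads of a molecule were counted as separate, and the counting error may be understated.

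Gene by gene, tumor 26 was the low one. It had the lowest CPM of the HiGI tumors for 45 of the 55 members (81.8%), tumor 20 for 6 and tumor 16 for 4. Among the 11575 other genes with a mean of at least 100 reads in HiGI tumors, 35.0% were lowest in tumor 26, 37.9% in tumor 20 and 27.1% in tumor 16. The highest tumor was 16 for 34 members (61.8%), 20 for 19 (34.5%) and 26 for 2 (3.64%). Among other genes it was tumor 16 for 45.8%, tumor 20 for 28.7% and tumor 26 for 25.4%, so tumor 16 was the most frequent in both. Among the 6 possible orders, 29 members fell from tumor 16 over 20 to 26, and 16 from tumor 20 over 16 to 26. No share over other genes is given for these orders. In tumor 26 the median member had 58.7% of its CPM in tumor 16, with quartiles of 37.0% and 82.8%, against 96.5% with quartiles of 87.3% and 106% for other genes. Genes of one library share its preparation, so these counts over genes describe 3 tumors and carry no test. The HiGI mean in the rule came from these same tumors, and its part in the counts was not tested.

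The members did not scale down in tumor 26 by one common factor, as the quartiles show. The 2 members that were highest in tumor 26 went the other way. One of them had 29.6, 21.1 and 50.7 CPM in HiGI tumors 16, 20 and 26, and the other had 5.18, 8.60 and 10.7 CPM. At the other end, 13 members had under 100 reads in tumor 26, with 6 to 98 reads there, while no member had under 100 reads in tumor 16 or tumor 20. Applied without tumor 26, the rule found 59 genes, of which 54 were members.

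**Figure D2:**
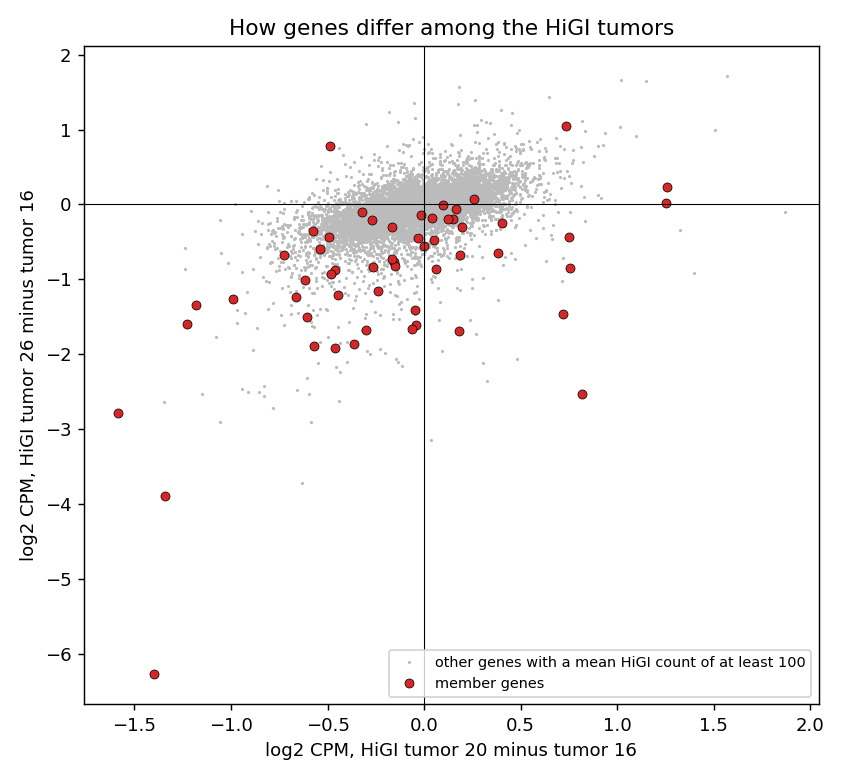
Log2 difference in CPM of HiGI tumor 20 (horizontal) and tumor 26 (vertical) from HiGI tumor 16, for the 55 member genes (red) and the 11575 other genes with a mean HiGI count of at least 100 (grey). Most members lie below the horizontal line, with a median of -0.77 on the vertical axis against -0.05 for the other genes.

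The spread among HiGI tumors was wide for members. The ratio of the highest to the lowest HiGI tumor had a median of 2.0 over the 55 members, with quartiles of 1.45 and 2.92, against 1.18 with quartiles of 1.11 and 1.29 over the other genes. It was at least 2 for 28 members (50.9%) and for 190 of the other genes (1.64%), and at least 3 for 14 members (25.5%) and 56 other genes (0.484%). Counting error weighs more on genes with few reads, so the ratio was also read at matched counts. Its median was 2.07 for 23 members and 1.30 for 1647 other genes at mean counts of 100 to 200 reads. At 200 to 500 reads it was 2.38 for 17 members and 1.22 for 2733 other genes, and from 500 reads it was 1.76 for 15 members and 1.15 for 7195 other genes. Both quartiles of members lay above the matching quartiles of other genes at each of these counts. Without HiGI tumor 26 the median of members was 1.31, without tumor 16 it was 1.49 and without tumor 20 it was 1.76. A gene could pass the rule through a single high HiGI tumor, and 13 members had over 50% of their HiGI CPM in a single tumor. How much of the spread comes from the choice of members was not tested.

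ENSG00000108342.13 had the widest spread. Its HiGI tumors 16, 20 and 26 gave 519, 187 and 6 reads, or 24.7, 9.35 and 0.320 CPM, a ratio of 77.0 between the highest and the lowest. Its LoGI tumors 19, 27 and 28 had 1, 0 and 1 reads. The mean in HiGI tumors, 11.4 ± 12.3 CPM (SD, n = 3), therefore rested on tumors 16 and 20, and fell to 4.84 CPM without tumor 16. Its ratio of summed HiGI to summed LoGI reads, scaled for library totals, was 359, with a counting interval of 99.1 to 2971 on 2 LoGI reads. In tumor 26 it was closer to the LoGI tumors than to tumor 16.

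Another 3 members had a ratio of at least 5. One had 299, 112 and 18 reads in HiGI tumors 16, 20 and 26, a ratio of 14.8. The next had 234, 392 and 36 reads, a ratio of 10.2, and the last had 557, 176 and 72 reads, a ratio of 6.89. The latter pair had 0 reads in all LoGI tumors, so that 2 of the 5 members at 0 in LoGI tumors were also among the 4 most uneven in HiGI tumors. All 4 were lowest in tumor 26.

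Other members were even across the HiGI tumors. In 5 members the highest was less than 1.2 times the lowest. The most even had 34.5, 36.9 and 34.2 CPM in HiGI tumors 16, 20 and 26, on 726, 737 and 641 reads, a ratio of 1.08, and 0, 5 and 1 reads in LoGI tumors 19, 27 and 28. The second most even had 13.3, 13.1 and 12.1 CPM in the HiGI tumors, a ratio of 1.10. As a yardstick, a chi-square for equal CPM in the HiGI tumors, divided by its degrees of freedom, passes 4.61 in 1% of genes when counting error is the only source of spread. It passed this level for 46 of 55 members and for 55.5% of other genes, and its median was 30.4 for members and 5.47 for other genes. The chi-square compares these 3 libraries with each other and no condition.

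The spread was also read by the size of the loss in LoGI tumors. Genes with at least 100 reads in HiGI tumors were sorted by their mean LoGI CPM as a percentage of HiGI. The median ratio of highest to lowest HiGI tumor was 1.66 for the 29 genes at 2% to 5% and 1.66 for the 30 genes at 5% to 10%. It was 1.51 for the 73 genes at 10% to 25%, 1.40 for the 130 genes at 25% to 50% and 1.28 for the 437 genes at 50% to 75%. For the 5929 genes at 75% to 100% it was 1.17, and for the 4918 genes at 100% to 150% it was 1.18. The share of genes lowest in tumor 26 was 69.0%, 70.0%, 72.6%, 60.8%, 56.1%, 33.4% and 33.3% in these same classes, against 81.8% of members. The 29 genes at over 150%, which were higher in LoGI tumors, had a median ratio of 1.37, and 55.2% of them were lowest in tumor 26. The share highest in tumor 16 was 48.3%, 56.7%, 56.2%, 59.2%, 60.0%, 46.2% and 43.4% in the classes from 2% to 150%. It was 62.1% at over 150% and 61.8% of members. The classes differed in read level, with a median HiGI level of 9.62 to 16.2 CPM from 2% to 75% and of 38.7 CPM from 75% to 150%, and the ratio falls with the count. Among genes with a mean HiGI count of 100 to 500 only, a range chosen after seeing the data, the median ratio was 2.14 for 40 members. It was 1.64 for 24 genes at 2% to 5%, 1.77 for 19 at 5% to 10%, 1.56 for 56 at 10% to 25%, 1.39 for 96 at 25% to 50% and 1.32 for 294 at 50% to 75%. It was 1.24 for both the 2088 genes at 75% to 100% and the 1782 at 100% to 150%. In that range 77.5% of members were lowest in tumor 26. The share was 70.8%, 68.4%, 73.2%, 62.5%, 57.1%, 36.7% and 37.3% in the classes from 2% to 150%, and 52.4% for the 21 genes above. Being lowest in tumor 26 was thus not particular to members. The classes were made from HiGI and LoGI means of these same tumors, which ties them to the spread in HiGI tumors, and the part of this tie in the gradient was not tested.

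**Figure D3:**
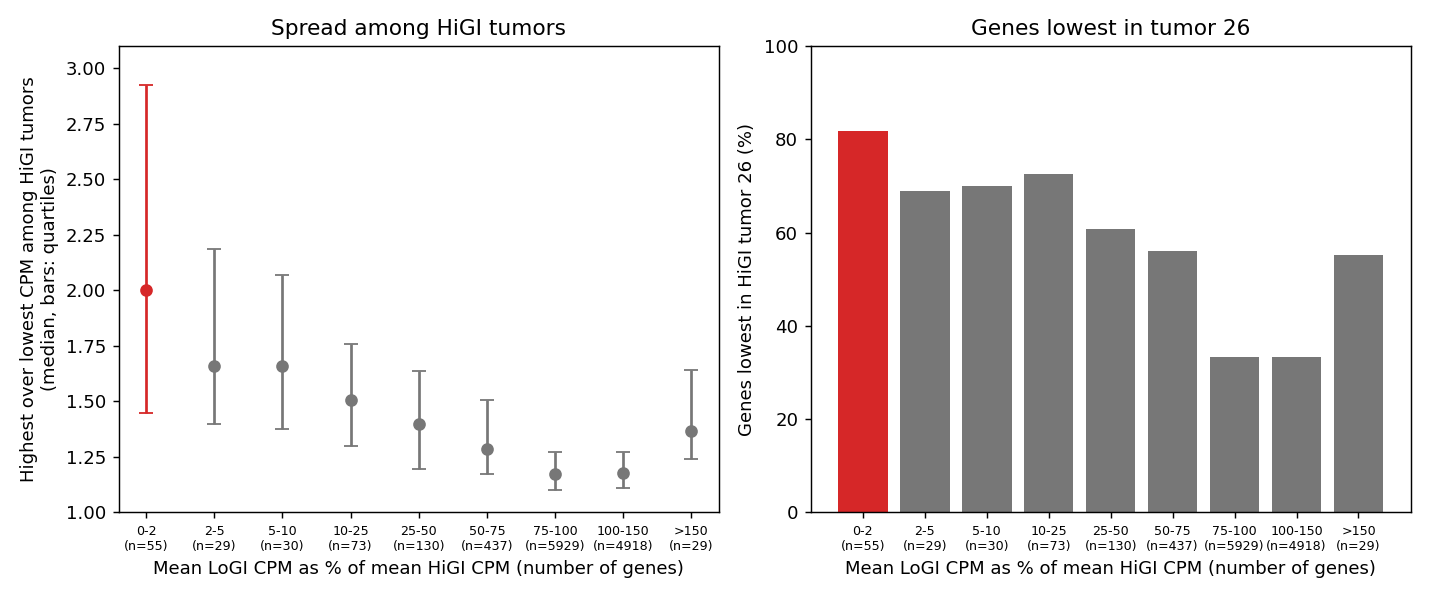
Genes with a mean HiGI count of at least 100, grouped by mean LoGI CPM as a percentage of mean HiGI CPM, with the number of genes under each class. The left panel plots the median ratio of highest to lowest HiGI tumor with quartiles as bars, 2.0 for the members (red, 0 to 2%); the right panel plots the percentage of genes lowest in HiGI tumor 26, 81.8% for the members.

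The rule was also read in tumors left out of the choice of genes, although the rule and its limits were set with all 6 tumors known. Genes were chosen on 2 HiGI and 2 LoGI tumors, and their LoGI CPM was set against their HiGI CPM in the pair of tumors left out, for each of the 9 pairs (chosen after seeing the data). Each choice gave 48 to 65 genes, of which 47 to 55 were members. Of the genes chosen, 45 to 47 also had at most 2% in the pair left out, and the median residue there was 0.328% to 0.924%. Most genes chosen were members, which had been picked with all 6 tumors, so a low residue was largely set beforehand. Among all genes with at least 100 reads in the HiGI tumor left out, 0.353% to 0.618% had at most 2%. The genes chosen did not need 100 reads in that tumor, and 0 to 20 of them had fewer. These shares are therefore not on equal terms. The number that met 2% was much the same whichever HiGI tumor was left out, 46 to 47 for tumor 26 and 45 to 47 for tumor 16 or 20. The list it came from was longer without tumor 26, with 60 to 65 genes of which 16 to 20 had under 100 reads in that tumor, so the share that met 2% was 70.8% to 78.3% there and 84.9% to 97.9% elsewhere. The highest residue in a pair left out was 21.1%. The 9 choices share most of their tumors and are not independent of each other. They describe the same data that gave the rule and add no separate support for the members.

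The nearest values on both sides of each limit show how the choice ended. The members closest to 2% had LoGI levels of 1.72%, 1.69% and 1.67% of HiGI, and the nearest genes outside had 2.30%, 2.33% and 2.38%. The members with the fewest reads had mean HiGI counts of 101, 104 and 111, and the nearest genes outside that met the 2% limit had 97, 91 and 89.3 reads. One of these outside genes was at 163, 78 and 32 reads in the HiGI tumors and at 0 in every LoGI tumor.

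Over all 24545 genes with at least 10 reads, edgeR (quasi-likelihood F-test, p adjusted by Benjamini-Hochberg) called 3.38% lower in LoGI tumors, taking an adjusted p under 0.05 together with a log2 change of -1 or less, and called 0.0733% higher by the mirrored rule. All 55 members were tested and called lower, with log2 fold changes (LoGI minus HiGI) from -11.00 to -5.77 and a median of -7.19, against a median of 0.00335 over all genes tested. All 55 also had every HiGI tumor above every LoGI tumor, which held for 13.1% of genes tested. These counts follow from the rule, which used the same contrast, and nothing is read from them.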

How the data were processed

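RNA of 6 LAPC-4 xenograft tumors (3 HiGI, 3 LoGI, grouped by the diet in the sample records) was sequenced as single-end reads of 75 bp from stranded mRNA libraries. The authors removed reads that BBMap placed on the mouse genome alone (GRCm38.p6), ran STAR on what was left against GRCh38.p13 (human), quantified genes with RSEM and deposited raw counts that are whole numbers. Tool versions, and how RSEM estimates became whole, are not given in the sources used here. Each column was matched to its tumor by name. P-values set the difference between diets against the spread between tumors of the same diet.

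CPM were computed on column totals. Members had a mean HiGI count of at least 100 and a mean LoGI CPM of at most 2% of HiGI. All genes with at least 10 reads summed over tumors were fitted with edgeR 4.0.16 in R 4.3.3 (TMM, glmQLFit, glmQLFTest, Benjamini-Hochberg), with the paper's thresholds, an adjusted p under 0.05 together with a log2 change of 1 or more in size. On counts simulated for this comparison, 100% of 200 genes changed 4-fold were recovered over 24014 genes, with 2 false calls. The simulation gave every gene the same spread between tumors, changed only genes above a minimum mean count, and raised as many as it lowered. It thus checks the code and does not measure power or false calls in these data. DESeq2 1.42.0 gave alternative size factors and a Wald test. Depth was 18749813 to 21550812 reads per tumor, so that 3 reads, the smallest level taken as shown, were 0.150 CPM on average in LoGI tumors.

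The rule for genes to be named was the most-read, the most and the least even members and the members of 22 gene lists. Since the gene names used here are those of mouse, 2 members are given by identifier, the most-read and the least even, and the lists, symbol families and promoter motifs were not looked up. Members, lists and alternatives were chosen with earlier results of these data known.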

Additional observations from a re-analysis of the deposited data

How the results depend on the processing

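The number of members (55) was the same under TMM and DESeq2 size factors. It was 84 with at most 5% in LoGI tumors and 32 with a mean of at least 200 HiGI reads, changes that follow from the limits themselves. Leaving out one tumor at a time gave 51 to 59, and 44 members met the rule in all 6 of those choices. Of the 32 members with at least 200 reads, 23 were highest in tumor 16, 8 in tumor 20 and 1 in tumor 26. Over all 55 these counts were 34, 19 and 2. They were 31, 22 and 2 with TMM, and 29, 24 and 2 with DESeq2 size factors. The median ratio of highest to lowest HiGI tumor (2.0) went from 1.31 to 1.76 with one HiGI tumor left out, a comparison of 2 tumors, lowest without tumor 26. The count of genes called higher in LoGI tumors (18) was 39 with every gene of at least 1 read, and ranged from 4 (without LoGI tumor 19) to 26 when single tumors were dropped, with 7 without HiGI tumor 20. The cause was not tested. The number lower (829) stayed within 1.5 times in each alternative run. No direction reversed among the results recomputed. The log2 fold change of ENSG00000108342.13 was -8.14, and -6.41 with a prior count of 2. No paired analysis was made, because each mouse was randomized to a single diet and the design pairs no tumors. Depth limits the residue in LoGI tumors, where 31 members had at most 3 reads in each. Lists fixed by gene symbol gave no value, and which genes the members are by name was not analysed here.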
